A study of Mus musculus with 24 samples.

Results

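Fasting for 18 h was followed in livers that lack Gpt2, the gene of the mitochondrial alanine transaminase, by comparing the 6 knockout libraries from fasted mice with the 6 from mice fed ad libitum. These 12 libraries, chosen by the genotype and feeding state in their titles, are 12 of the 24 in the series. The knockout mice carry the genotype label LSALT2KO and the control mice the label Control with fl/fl in their titles, and both genotypes were sampled fed or after the fast. All libraries are labelled as mouse liver, and polyadenylated RNA was sequenced. The letter M stands in every library title, in both genotypes and both feeding states. Not given in the sources used here were the driver of the deletion and the strain and age of the mice. Each library title carries its own number, but nothing says that each library is a separate animal, so the p-values reflect the spread among these 12 and 10 libraries, which may be technical.

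A fasting liver turns from storing glucose and making fat to burning fatty acids and releasing ketone bodies and glucose. The nuclear receptor PPARA drives fatty acid oxidation genes, the sterol regulatory element binding proteins (SREBPs) drive fatty acid and cholesterol synthesis genes in the fed state, and glucagon and glucocorticoids drive the genes of glucose production. Alanine transaminases turn alanine, which muscle releases during a fast, into pyruvate, a starting material for glucose.

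The knockout libraries held 18.4 to 55.3 M reads assigned to genes. Their albumin (Alb) levels, the defining hepatocyte product and the check of the liver label, were 48910 to 120300 CPM, the read counts scaled to a common library size. Outside these 12, control fed replicate 6 came as a damaged file and was not used. The library labelled control fasted replicate 4 had 75.33 CPM of Alb and 4325 CPM of the kidney gene Kap, which reached at most 9.186 CPM in the other 22 libraries, and it was left out of the fit. The fit over the remaining 22 libraries tested 16757 genes with edgeR's quasi-likelihood test and Benjamini-Hochberg adjustment, and a gene was called at an adjusted p under 0.05. With the kidney-like library included, the same comparison of knockout livers gave 379 calls in place of 1029, all 379 among the 1029. It gave 1020 calls, of which 906 were shared, when the fit held the 12 knockout libraries alone. On the first principal component of the 500 most variable genes, which held 20.2% of the variance, the knockout fed libraries lay between -21.26 and -3.63 and the knockout fasted libraries between 8.56 and 25.94.

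The promoters printed here show the sterol regulatory element, a sequence that SREBPs bind, in genes that moved in this comparison. The letters TCACNCCAC were searched on both strands in the 300 bases around each gene's start, 250 before to 50 after, from RefSeq on GRCm38.p6. The sequence stood in 174 of 14512 promoters of tested genes (1.2%), in 16 of 561 promoters of genes called lower (2.85%) and in 4 of 514 of genes called higher (0.778%). Among the cholesterol synthesis genes 18 had a promoter in the table, and 1 of their 22 promoters held it, that of Hmgcs1, the enzyme that feeds the mevalonate pathway. Mlxipl encodes ChREBP, the glucose-sensing activator of fat synthesis, and its promoter held a match too. Ehhadh, a peroxisomal oxidation gene that rose, is shown because its promoter held the same letters on the opposite strand. Each run is given 5' to 3' along the gene's strand with the match in capitals, and a match describes letters and not a bound site. The windows are chr13:119690101-119690400 (+) for Hmgcs1, chr5:135106641-135106940 (+) for Mlxipl and chr16:21787785-21788084 (-) for Ehhadh, with the match starting 137, 136 and 171 bases before the start.
Hmgcs1: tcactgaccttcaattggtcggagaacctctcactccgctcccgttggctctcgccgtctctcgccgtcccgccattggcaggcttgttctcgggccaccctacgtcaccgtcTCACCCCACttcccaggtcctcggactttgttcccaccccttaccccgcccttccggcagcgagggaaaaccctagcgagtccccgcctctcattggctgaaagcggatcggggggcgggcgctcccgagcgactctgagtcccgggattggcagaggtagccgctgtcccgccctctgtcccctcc
Mlxipl: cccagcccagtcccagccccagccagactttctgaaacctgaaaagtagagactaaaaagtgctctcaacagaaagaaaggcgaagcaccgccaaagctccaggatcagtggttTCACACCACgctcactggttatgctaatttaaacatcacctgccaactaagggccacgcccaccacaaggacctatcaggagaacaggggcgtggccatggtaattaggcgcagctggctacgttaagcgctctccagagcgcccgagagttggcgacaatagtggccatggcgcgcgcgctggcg
Ehhadh: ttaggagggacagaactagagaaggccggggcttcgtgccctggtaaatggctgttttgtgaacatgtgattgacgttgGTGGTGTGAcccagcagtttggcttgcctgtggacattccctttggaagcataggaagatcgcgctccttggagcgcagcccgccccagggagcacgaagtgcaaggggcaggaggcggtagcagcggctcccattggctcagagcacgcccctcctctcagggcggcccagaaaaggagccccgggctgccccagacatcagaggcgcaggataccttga

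Other letters were searched in the same windows. The forkhead sequence GTAAACA was found in 2.92% of all promoters, 3.11% of those of genes called higher and 3.57% of those called lower. The C/EBP and ATF sequence TTGCATCA stood in 0.668%, 0.778% and 1.07%, in the same order. A direct repeat of AGGTCA with 1 base between, the form that PPARA binds, was found in 8 of all 14512 promoters (0.0551%) and in none of the called genes' promoters. The exact repeat is so rare over all promoters that its absence there cannot show a lack of PPARA sites.

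The targeted gene checks the labels. In knockout livers Gpt2 (chr8:85492576-85527560) lay at 48.3, 58.9 and 78.0 CPM (here and below the lowest, the median and the highest of 6 libraries) when fed and at 52.1, 123 and 148 CPM after the fast. Control livers had 307 to 447 CPM fed and 557 to 795 CPM fasted, above every knockout library. The remaining transcript rose with fasting in knockout livers, by 0.88 ± 0.18 on the log2 scale (SE) with an adjusted p of 0.00221, and a two-sided exact permutation test of log2 CPM gave a difference of 0.823 with p = 0.0152. The groups overlapped, since fasted replicate 5, at 52.1 CPM, lay within the fed range. In control livers the rise was 0.91, and the difference between the genotypes was -0.03 ± 0.27. The cytosolic alanine transaminase Gpt (chr15:76696764-76699674) had 284, 314 and 338 CPM fed and 196, 309 and 417 CPM fasted, a log2 difference of -0.01 ± 0.12 with an adjusted p of 0.987. Its exact permutation test gave p = 0.768. With the kidney-like library in the fit, the edgeR call for Gpt2 was not made.

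Fasting changed 1029 of the 16757 genes (6.14%) in knockout livers, 483 higher (2.88%) and 546 lower (3.26%). Of these, 306 changed at least 2-fold, 150 higher and 156 lower, and 95 at least 4-fold. The fed and fasted libraries did not overlap for 554 of the called genes, against 665 of all genes tested (3.97%). Genes called higher took a median of 6.55% of a fed library's reads and 12.49% of a fasted one's, while those called lower went from 8.06% to 4.30%. The median log2 change of all genes tested was 0.011. Scaling by library totals moved that median to -0.044 and gave 357 genes higher and 616 lower of 973, so the share of rises fell from 46.9% to 36.7%.

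**Figure D1:**
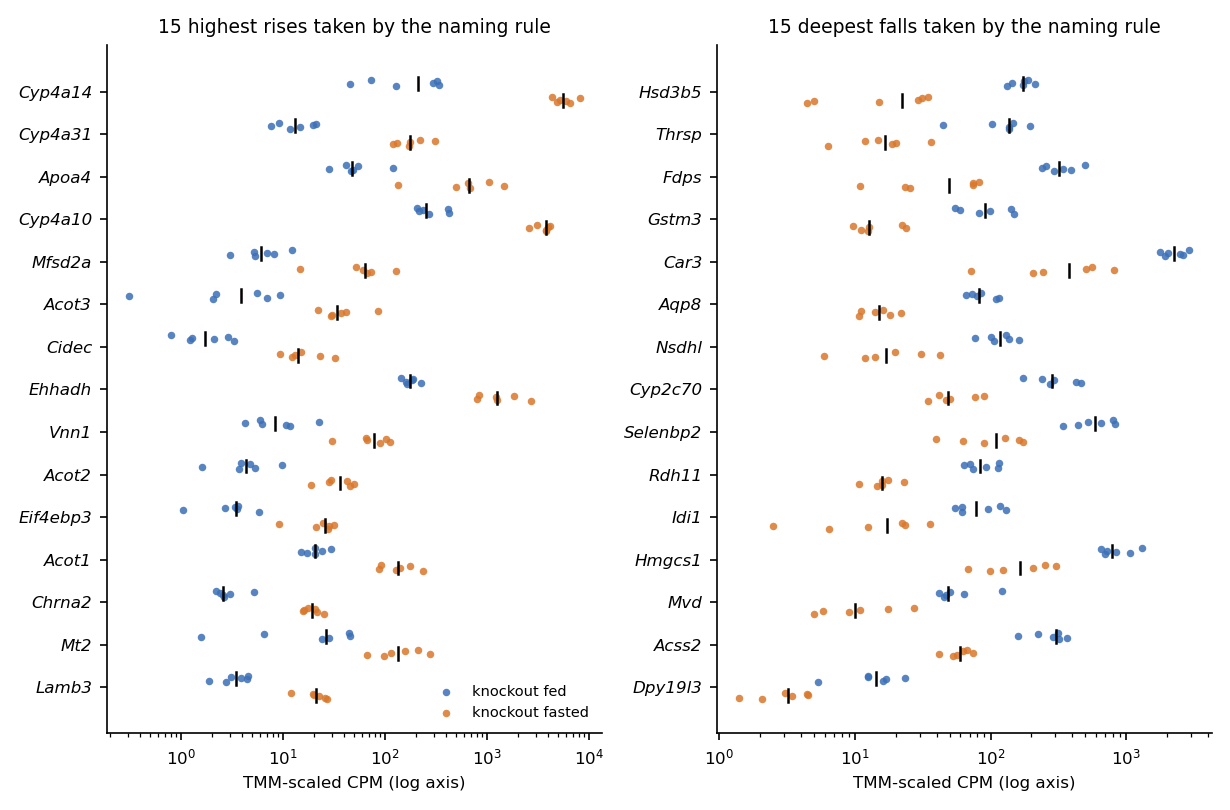
CPM (log axis) of the 15 highest rises and the 15 deepest falls that the naming rule took, 1 point per library, knockout fed in blue and knockout fasted in orange, with a bar at each group's median. The rule took only genes whose groups lie apart, and Cyp4a14, for example, moved from 45 to 337 CPM fed to 4370 to 8078 CPM fasted.

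Cyp4a14 had the highest rise of the genes that the naming rule took. This enzyme gene (chr4:115486200-115496142), whose product hydroxylates the end carbon of fatty acids, went from 45, 212 and 337 CPM to 4370, 5582 and 8078 CPM, a log2 change of 4.86 ± 0.63 with an adjusted p of 4.24e-05. Its neighbour Cyp4a10 (chr4:115518264-115533649) went from 207, 251 and 428 CPM to 2595, 3823 and 4118 CPM, and Cyp4a31 from 7.63, 13.2 and 20.9 CPM to 120, 175 and 308 CPM. For all 3 the lowest fasted library lay above the highest fed one, as the naming rule required of the highest rises. They are close paralogs, so the split of reads among them is uncertain. Of the 11 Cyp4 genes tested, 4 rose and 1 fell. The one that fell was Cyp4f14, of the branch that hydroxylates leukotrienes and vitamin E, from 257, 293 and 360 CPM to 75.9, 81.6 and 108 CPM (-1.79 ± 0.13, adjusted p 4.41e-11). That call was not made with the kidney-like library in the fit.

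Genes that bring fatty acids into mitochondria rose: of 17 tested for uptake, activation and the carnitine shuttle, 9 rose and 2 fell, with a median log2 change of 0.55 against 0.011 over all genes. Cpt1a (chr19:3323301-3385732), the carnitine palmitoyltransferase of the outer membrane and the gate of fatty acid entry, went from 255, 299 and 342 CPM to 526, 750 and 914 CPM (1.33 ± 0.13, adjusted p 9.84e-09). The carnitine carrier Slc25a20 had 53.6, 66.6 and 72.5 CPM fed and 133, 138 and 144 CPM fasted. Acsl1, which activates fatty acids with coenzyme A, had 750, 921 and 990 CPM fed and 1671, 1940 and 2286 CPM fasted. Neither overlapped between the groups. The fatty acid transporter Slc27a2 rose by 1.10 and the carnitine acetyltransferase Crat by 2.04, the latter chosen after its values were seen. The members that fell were other acyl-CoA synthetases, Acsl3 (-1.02) and Acsl5 (-0.38), named here because they were the exceptions.

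Mitochondrial beta-oxidation moved the same way, with 13 of 18 genes called higher, none lower and a median of 0.87. The medium-chain dehydrogenase Acadm went from 164, 190 and 226 CPM to 363, 393 and 513 CPM (1.12 ± 0.11, adjusted p 1.5e-08). Etfdh, which passes electrons from these dehydrogenases to the respiratory chain, went from 177, 186 and 194 CPM to 323, 340 and 368 CPM. Groups did not overlap for either gene, nor for Acad11 (0.96) and Hsd17b10 (1.28). The 5 members not called were Echs1, Etfa, Acads, Acaa2 and Hadh, at -0.24 to 0.28. In bulk tissue, fewer cells of a type and less RNA per cell cannot be told apart, and this holds for every gene here.

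Ketone body genes rose in 6 of 8 cases and none fell, with a median of 0.62. Slc16a1, a monocarboxylate transporter that exports ketone bodies, went from 37.8, 43.5 and 60.2 CPM to 63.0, 78.8 and 118 CPM (0.86 ± 0.14, adjusted p 6.48e-05). The thiolase Acat1 went from 249, 275 and 317 CPM to 368, 423 and 481 CPM (0.61 ± 0.12). Groups did not overlap for either gene.

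In the peroxisome, which shortens very long fatty acids, 14 of 19 genes rose and 2 fell, with a median of 0.74. Ehhadh (chr16:21761287-21787844), the bifunctional enzyme whose promoter is printed above, went from 145, 175 and 223 CPM to 798, 1250 and 2708 CPM (3.02 ± 0.30, adjusted p 1.52e-06). Pex11a, which promotes peroxisome division, rose by 1.56, although fed replicate 2 (59.4 CPM) stood above the other fed libraries (29.0 to 35.9 CPM). Acyl-CoA thioesterases, which release free fatty acids, rose too: Acot3 by 3.24, the mitochondrial Acot2 by 2.90 and the cytosolic Acot1 by 2.75. Their groups did not overlap, as the naming rule required of the highest rises, and these genes are close copies of each other. The coenzyme A hydrolase Nudt7 fell from 114, 305 and 361 CPM to 26.3, 55.4 and 98.9 CPM (-2.18 ± 0.31). It was named after its values were seen.

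Of 20 further PPARA targets and fasting hormones, 7 rose and none fell, with a median of 0.67. Mgll, which cleaves monoglycerides, went from 82.0, 89.8 and 143 CPM to 246, 303 and 326 CPM (1.53 ± 0.15, adjusted p 1.5e-08), and Fitm2, needed for lipid droplet formation, rose by 1.04. Fgf21, the liver hormone of fasting, was near the limit of detection when fed, at 0, 0.194 and 0.791 CPM, and reached 1.16, 3.92 and 15.4 CPM after the fast (4.12 ± 0.90, adjusted p 0.00584). Its groups did not overlap. Ppara itself went from 78.3, 104 and 117 CPM to 119, 159 and 205 CPM (0.67 ± 0.14), and the transcription factor Creb3l3 rose by the same 0.67. Neither of these was called with the kidney-like library in the fit. Fgf21 and Ppara were chosen after their values were seen. Not called were Pdk4, the kinase that switches off pyruvate dehydrogenase, at 1.09 with an adjusted p of 0.415, and the coactivator Ppargc1a at 0.37 with 0.499. Pdk4 lay at 85.8 CPM in fasted replicate 4 and at 3.57 to 13 CPM in the other fasted libraries, against 4.75 to 13.5 CPM fed.

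Lipid droplet genes rose in 5 of 17 cases, and 1 fell (2 by DESeq2). Cidec, which enlarges droplets, went from 0.796, 1.70 and 3.29 CPM to 9.36, 14.1 and 32.5 CPM (3.16 ± 0.43, adjusted p 3.94e-05). The droplet coat genes Plin2 and Plin5 rose by 1.04 and 1.61, and Plin4, chosen after its values were seen, by 3.48. Pnpla2, the triglyceride lipase, went from 57.9, 74.7 and 88.5 CPM to 98.7, 152 and 205 CPM. Among 20 apolipoprotein and lipoprotein assembly genes 4 rose and none fell. Apoa4, carried on triglyceride-rich particles, went from 28.1, 47.9 and 119 CPM to 133, 666 and 1482 CPM (3.73 ± 0.62, adjusted p 0.000604). Mttp, which loads lipid onto apolipoprotein B, rose by 0.66 and Apoc2 by 0.62, calls that were not made with the kidney-like library in the fit.

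Fatty acid synthesis moved the other way, with 11 of 19 genes lower, 1 higher and a median of -0.84. Acly (chr11:100476353-100528000), which makes cytosolic acetyl-CoA from citrate, went from 296, 315 and 400 CPM to 87.2, 103 and 138 CPM (-1.64 ± 0.13, adjusted p 2.33e-10). Thrsp, a lipogenic helper protein, fell from 44.4, 137 and 194 CPM to 6.32, 16.7 and 36.3 CPM (-2.81 ± 0.49). Acss2, which makes acetyl-CoA from acetate, fell by 2.24 on the log2 scale. Each of these had no overlap between fed and fasted libraries, which the naming rule required of Thrsp and Acss2. Among genes chosen after their values were seen, the fatty acid synthase Fasn fell by 1.67, the desaturase Scd1 by 1.66 and the regulators Srebf1, which encodes SREBP-1, and Mlxipl by 2.10 and 0.78. Srebf1 had 213, 269 and 389 CPM fed and 43.6, 59.2 and 107 CPM fasted. The member that rose was the elongase Elovl5, from 199, 241 and 268 CPM to 415, 468 and 627 CPM (1.09 ± 0.13, adjusted p 3.29e-07). Its call was not made with the kidney-like library in the fit.

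Cholesterol synthesis and uptake genes fell along the whole pathway: 19 of 26 were called lower, none higher, all 26 log2 changes were below 0 and the median was -1.81. Hmgcs1 (chr13:119690462-119708086), whose promoter is printed above, went from 649, 782 and 1307 CPM to 68.6, 164 and 305 CPM (-2.33 ± 0.48, adjusted p 0.00424). Fdps (chr3:89093592-89101967), which makes farnesyl diphosphate, went from 240, 320 and 495 CPM to 10.9, 49.8 and 81.6 CPM (-2.80 ± 0.58, adjusted p 0.00477). Idi1, an isomerase of the isoprenoid steps, went from 55.1, 78.8 and 130 CPM to 2.48, 17.4 and 35.5 CPM. In none of these did the groups overlap, as the naming rule required of the deepest falls. The thiolase Acat2 fell by 1.74, Pmvk by 2.04, and the late enzymes Nsdhl, Sc5d and Ebp by 2.51, 1.61 and 0.77.

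Insig1, which holds SREBPs in the endoplasmic reticulum, went from 366, 457 and 616 CPM to 42.8, 105 and 171 CPM (-2.17 ± 0.40, adjusted p 0.0017). Mvd, the decarboxylase of the mevalonate pathway, was at -2.28 with 0.0286 and was not called without knockout fasted replicate 3 (0.0602), 4 (0.0669), 5 (0.0591) or 6 (0.0704) or without knockout fed replicate 1 (0.0747). The epoxidase Sqle was at -1.81 with an adjusted p of 0.0639, just short of a call, and was called by DESeq2 (0.00616) and without control fasted replicate 1 (0.0429) or 3 (0.0439) or knockout fasted replicate 2 (0.0478). Srebf2, which encodes SREBP-2 (-0.50, adjusted p 0.324), was not called. Insig1, Sqle and Srebf2 were chosen after their values were seen.

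**Figure D2:**
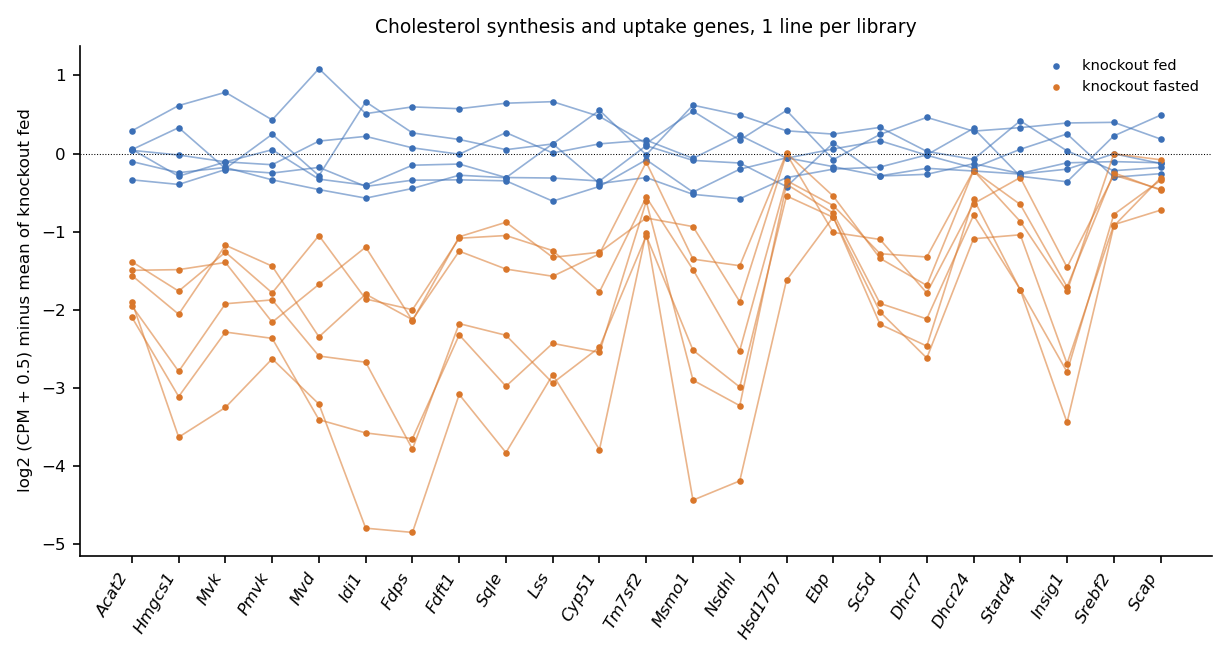
Log2 (CPM + 0.5) of 23 of the 26 cholesterol genes, as the difference from the mean of the knockout fed libraries, with 1 line per library in blue (fed) and orange (fasted). The fasted lines lie below the fed ones for most genes and fall into 2 sets by the median of the 26, 3 libraries with list medians of -1.35 to -1.15 and 3 with -2.78 to -2.26.

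The fasted libraries were not alike in this list. The median of the 26 genes against the fed mean was -1.24, -1.15 and -1.35 in fasted replicates 1, 2 and 3 and -2.78, -2.26 and -2.36 in replicates 4, 5 and 6, while the fed libraries ranged from -0.26 to 0.47. Fatty acid synthesis showed a smaller spread, with fasted medians of -1.06 to -0.75. The labels give no batch or other record by which to divide the fasted libraries, so what separates them was not tested.

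Bile acid genes moved in both directions, with 3 of 22 higher and 5 lower. Abcb4, which puts phosphatidylcholine into bile, went from 156, 198 and 226 CPM to 456, 512 and 631 CPM (1.44 ± 0.12, adjusted p 4.67e-10). Abcb11, the bile salt export pump, went the other way, from 413, 499 and 629 CPM to 163, 212 and 305 CPM (-1.20 ± 0.12, adjusted p 2.45e-08). Cyp2c70, which makes the muricholic acids of mice, fell from 173, 286 and 466 CPM to 34.5, 48.6 and 88.9 CPM, and Hsd3b7, an enzyme of bile acid synthesis, fell by 0.64. Groups were separate for each of the 4, which the naming rule required of Cyp2c70. With the kidney-like library in the fit Abcb4, Abcb11 and Hsd3b7 were not called. Cyp7a1, the rate-limiting enzyme of bile acid synthesis, varied more between libraries than between states, at 52.3, 136 and 372 CPM fed and 55.3, 219 and 404 CPM fasted (0.31 ± 0.57, adjusted p 0.91, chosen after its values were seen).

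Glucose production was covered by 17 genes, of which 6 rose and none fell and the median was 0.295. Pcx (chr19:4510472-4621752), pyruvate carboxylase, takes pyruvate into the pathway and went from 501, 561 and 632 CPM to 835, 1013 and 1234 CPM (0.85 ± 0.13, adjusted p 1.76e-05). Gpd1, which handles glycerol phosphate, went from 249, 297 and 321 CPM to 512, 547 and 643 CPM. Slc37a4, the carrier that brings glucose 6-phosphate to its phosphatase, went from 72.4, 85.6 and 109 CPM to 135, 156 and 268 CPM, with the highest value in fasted replicate 4. These 3 genes showed no overlap between states. Slc25a10, a dicarboxylate carrier, rose by 0.55 and Fbp1, fructose bisphosphatase, by 0.43, the latter chosen after its values were seen; neither was called with the kidney-like library in the fit.

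Pck1, the carboxykinase, went from 1648, 1896 and 2263 CPM to 2145, 3845 and 4425 CPM (0.89 ± 0.25), with an adjusted p of 0.0388, and was not called without any one of knockout fasted replicates 1, 3, 5 and 6 and knockout fed replicates 1, 3, 4, 5 and 6. Those values ranged from 0.0615 (without knockout fed replicate 4) to 0.0865 (without knockout fasted replicate 6), and it was not called with library totals (0.0691), with no filter beyond 1 count (0.0712) or with the kidney-like library. G6pc, the catalytic glucose-6-phosphatase, was at 205, 290 and 360 CPM fed and 95.2, 125 and 286 CPM fasted, with a log2 change of -0.80 ± 0.38 and an adjusted p of 0.31. Fasted replicates 1 to 4 had 97.6, 99.6, 95.2 and 150 CPM, below every fed library, and replicates 5 and 6 had 249 and 286 CPM, inside the fed range. Mpc2, a subunit of the mitochondrial pyruvate carrier, was at 0.38 with an adjusted p of 0.0552 and was called without control fed replicate 4 (0.0487), knockout fasted replicate 5 (0.0123) or 6 (0.0494) or knockout fed replicate 3 (0.0317), and by DESeq2 (0.0372). G6pc and Mpc2 were chosen after their values were seen.

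**Figure D3:**
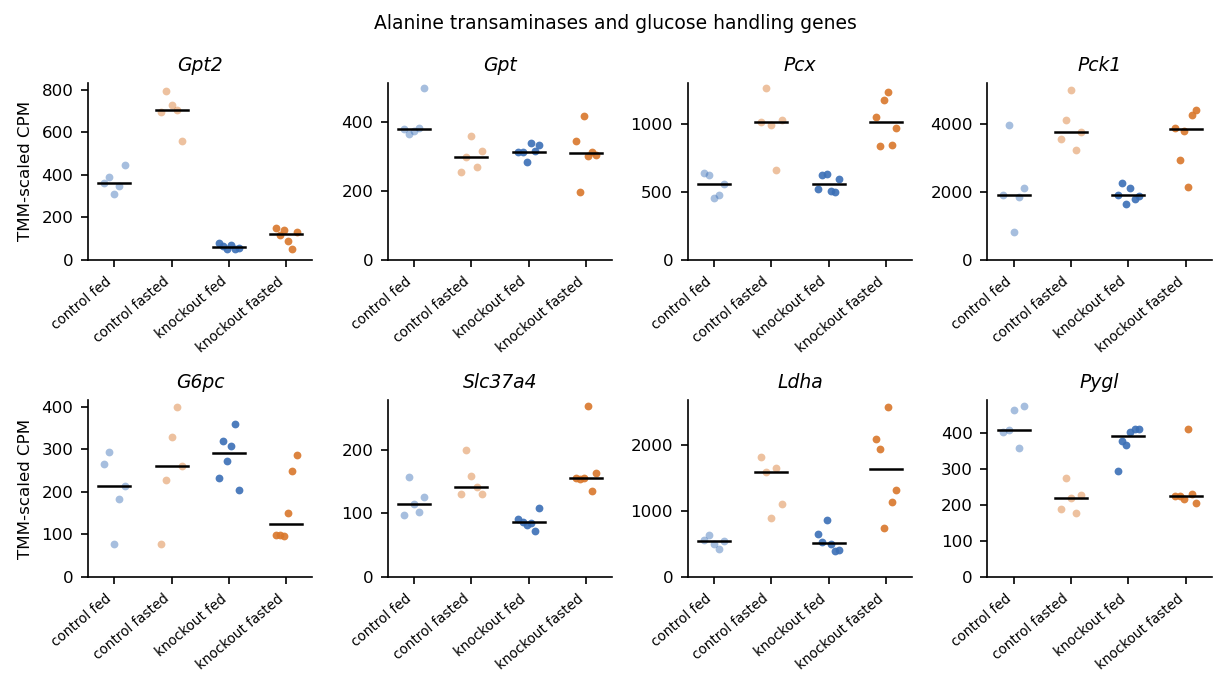
CPM (linear axis from 0) of Gpt2, Gpt and 6 glucose genes in the 4 groups, 1 point per library with a bar at the median. Gpt2 is at most 148 CPM in the 12 knockout libraries and at least 307 CPM in the 10 control libraries, and Pcx is higher in every fasted than in every fed knockout library.

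In glycolysis and glycogen metabolism 4 of 21 genes rose and 1 fell. Ldha, a lactate dehydrogenase, went from 392, 514 and 863 CPM to 745, 1634 and 2572 CPM (1.56 ± 0.27, adjusted p 0.000833), with fasted replicate 3 inside the fed range. The liver glycogen synthase Gys2 rose by 0.84, from 80.4, 90.4 and 127 CPM to 150, 166 and 192 CPM. Pygl, the liver glycogen phosphorylase, fell by 0.58: fasted replicate 4 held 411 CPM and the other fasted libraries 205 to 229 CPM. Fasted replicate 4 had the highest median of this list, 0.75 against -0.22 to 0.33 in the other fasted libraries. Gys2 and Pygl were not called with the kidney-like library in the fit.

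In the tricarboxylic acid cycle 4 of 20 genes rose and 2 fell. The cytosolic isocitrate dehydrogenase Idh1 fell from 243, 268 and 330 CPM to 143, 177 and 201 CPM (-0.63 ± 0.10, adjusted p 3.14e-05), while Ogdh, a subunit of the mitochondrial oxoglutarate dehydrogenase, rose by 0.51. The latter call was not made with the kidney-like library in the fit. With library totals 2 of the 20 rose. The other fall, that of the pyruvate dehydrogenase subunit Dlat (-0.36, adjusted p 0.0453, named after its values were seen), ended the count of 2 at 1 without any one of control fasted replicates 1 to 3, control fed replicates 1 to 4, knockout fasted replicates 1 and 3 to 6 and knockout fed replicates 1, 4, 5 and 6.

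Of the transaminases, Gpt2 among them, 2 of 14 were called higher and 2 lower, and the median was 0.05. Kyat1, which transaminates kynurenine, went from 132, 150 and 210 CPM to 75.2, 82.0 and 108 CPM (-0.82 ± 0.12, adjusted p 9.29e-06). Agxt, the peroxisomal enzyme that uses alanine to clear glyoxylate, went from 263, 298 and 360 CPM to 153, 232 and 255 CPM, without overlap (-0.50 ± 0.13, adjusted p 0.0103), and lost its call with the kidney-like library. The second rise, that of Aadat (0.52, adjusted p 0.0488), which transaminates aminoadipate, was lost without any one of control fasted replicate 6, control fed replicates 1, 2, 4 and 5, knockout fasted replicates 1, 2, 3 and 6 and knockout fed replicates 1, 2, 3, 4 and 6 (0.0525 to 0.155). Tat, the tyrosine transaminase, was at 876, 1200 and 1786 CPM fed and 900, 1146 and 1561 CPM fasted (-0.06, adjusted p 0.971, chosen after its values were seen).

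Amino acid breakdown genes were called higher in 4 and lower in 6 of 34 cases. Mat1a, which makes S-adenosylmethionine from methionine, went from 1863, 2409 and 2759 CPM to 6585, 7064 and 8133 CPM (1.61 ± 0.12, adjusted p 9.16e-11), and no fed library came near the fasted range. The tryptophan and kynurenine genes Ido2 and Haao fell by 0.98 and 0.83, and Aldh4a1, of proline breakdown, by 0.63. Fasted replicate 2 was the lowest for Haao, at 174 CPM against 240 to 292 CPM. Mat1a and Ido2 were not called with the kidney-like library in the fit.

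Of 9 urea cycle genes 4 rose and 1 fell. Asl, which releases arginine and fumarate, went from 383, 467 and 585 CPM to 561, 1222 and 1414 CPM (1.24 ± 0.19, adjusted p 7.05e-05), with fasted replicate 2, the lowest, inside the fed range. The aspartate and glutamate carriers Slc25a13 and Slc25a22 rose by 0.56 and 0.82. Otc, the mitochondrial carbamoyltransferase, fell by 0.51. These 4 calls were all absent from the fit with the kidney-like library. Among 15 amino acid transporters 1 rose and 1 fell, near the shares over all genes tested (2.88% higher and 3.26% lower). The fall was that of the glutamine carrier Slc38a3, from 1561, 1645 and 1832 CPM to 811, 1076 and 1411 CPM (-0.61 ± 0.14, adjusted p 0.00401), also lost with that library. The rises were 2 without control fasted replicate 5, knockout fasted replicate 2 or knockout fed replicate 1, and the falls 2 without control fed replicate 4, knockout fasted replicates 4, 5 or 6 or knockout fed replicate 3. Slc25a47, a mitochondrial carrier of hepatocytes, rose by 1.11 (adjusted p 0.0186), a call that was lost without knockout fasted replicate 4 (0.92 log2, adjusted p 0.0512) and with the kidney-like library (1.11 log2).

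Of 20 genes of the ATF4 response 1 rose, a share near the 2.88% of all genes tested that were called higher. It was the transcription factor Atf5, from 256, 298 and 363 CPM to 424, 565 and 714 CPM (0.90 ± 0.13, adjusted p 1.1e-05, lost with the kidney-like library). A second was called without control fed replicate 2, and 1 fell without knockout fasted replicate 4. Of 12 cytosolic heat shock genes 2 rose, Hspa8 from 365, 447 and 575 CPM to 718, 887 and 975 CPM (0.95 ± 0.11, adjusted p 1.28e-07) and Hspa1b, a close copy of Hspa1a, by 1.04. The latter was lost with the kidney-like library. The antioxidant and glutathione S-transferase list fell in 9 of 21 cases and rose in 2, with a median of -0.31. Gstm3 went from 54.6, 91.0 and 148 CPM to 9.65, 12.6 and 23.7 CPM (-2.67 ± 0.29, adjusted p 3.99e-06), Gsta3 from 712, 1105 and 1354 CPM to 225, 370 and 619 CPM, and Gstm1 fell by 0.95. Each of the 3 was without overlap, which the naming rule required of Gstm3, and members of the Gstm cluster share sequence. With library totals none of the list rose, and with the knockout libraries alone 1 did.

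Among hormone-driven genes, those of glucocorticoids rose in 4 of 14 cases and fell in 1, with a median of 0.56 against 0.011. Fkbp5, a chaperone of the glucocorticoid receptor, went from 14.8, 23.4 and 37.7 CPM to 68.6, 93.9 and 172 CPM (2.12 ± 0.31, adjusted p 0.000152), without overlap. The metallothioneins Mt1 and Mt2, which bind zinc, were at 2.25 and 2.61, with adjusted p of 0.0147 and 0.0262. Mt1 was not called in a fit of the 12 knockout libraries alone (0.0584), nor was Mt2 (0.0555). Mt2 was also not called without knockout fasted replicate 4 (0.058) or knockout fed replicates 2 (0.0567), 5 (0.0505) or 6 (0.0562) or with the kidney-like library. In each of those 4 fits without a library the count of 4 rises became 2. The fall was that of the corticosteroid-binding globulin gene Serpina6 (-1.13, adjusted p 0.0257), and its call was lost without knockout fasted replicate 1 (0.0566) or 5 (0.056), without knockout fed replicate 5 (0.0601) and with the kidney-like library. Igfbp1, an insulin-repressed binding protein, was not called at 1.92 (adjusted p 0.218, chosen after its values were seen), with 61.6 to 217 CPM fed and 53.1 to 982 CPM fasted.

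Growth hormone and male-biased genes fell in 5 of 25 cases and rose in 1 (2 without knockout fasted replicate 4). Hsd3b5 (chr3:98618636-98630309), a male-biased steroid enzyme, fell deepest of the genes that the naming rule took, from 131, 174 and 212 CPM to 4.42, 22.1 and 34.6 CPM (-3.10 ± 0.49, adjusted p 0.000371). Selenbp2, a selenium-binding protein, went from 342, 586 and 829 CPM to 39.7, 109 and 174 CPM, and Ghr, the growth hormone receptor, from 352, 415 and 579 CPM to 213, 257 and 296 CPM. Groups lay apart for all 3, which the naming rule required of Hsd3b5 and Selenbp2. Igf1, the growth factor that growth hormone induces, was at 404, 465 and 669 CPM fed and 360, 404 and 442 CPM fasted (-0.29 ± 0.11, adjusted p 0.123, chosen after its values were seen).

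Drug-metabolizing cytochrome P450 genes fell in 5 of 31 cases and rose in 3. Cyp2c29 went from 1107, 1630 and 1946 CPM to 244, 432 and 582 CPM (-1.88 ± 0.18, adjusted p 1.22e-07), and Cyp1a2, a caffeine-metabolizing enzyme, fell by 1.02. Cyp2c55 fell from 2.90, 6.46 and 8.13 CPM to 0.218, 0.717 and 1.69 CPM. Por, the reductase that feeds electrons to all of them, rose from 235, 302 and 417 CPM to 434, 702 and 862 CPM (1.11 ± 0.16, adjusted p 2.48e-05). Nuclear receptors and liver transcription factors rose in 4 of 21 cases. Among them were the xenobiotic receptor CAR, Nr1i3, from 71.0, 98.3 and 116 CPM to 140, 232 and 332 CPM (1.34 ± 0.19), and the hepatocyte factor Hnf4a, by 0.48. With the kidney-like library in the fit, Cyp2c29, Cyp1a2, Nr1i3 and Hnf4a were not called.

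Several other falls and rises that the naming rule took stood outside these pathways, with no overlap of groups, as the rule required. Car3, a carbonic anhydrase, went from 1775, 2268 and 2934 CPM to 72.2, 376 and 817 CPM (-2.52 ± 0.47, adjusted p 0.00194). Aqp8, a water channel of the canalicular membrane, went from 65.6, 82.2 and 115 CPM to 10.7, 15.1 and 21.9 CPM (-2.51 ± 0.20, adjusted p 9.84e-09). Mfsd2a, which imports lysophospholipids that carry omega-3 fatty acids, went from 3.0, 6.12 and 12.3 CPM to 14.8, 63.6 and 128 CPM. Vnn1, a pantetheinase, rose by 2.91, the nicotinic receptor gene Chrna2 by 2.69, the laminin chain Lamb3 by 2.61 and the translation repressor Eif4ebp3 by 2.81. The retinol dehydrogenase Rdh11 fell by 2.44 and Dpy19l3, a mannosyltransferase, by 2.19.

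**Figure D4:**
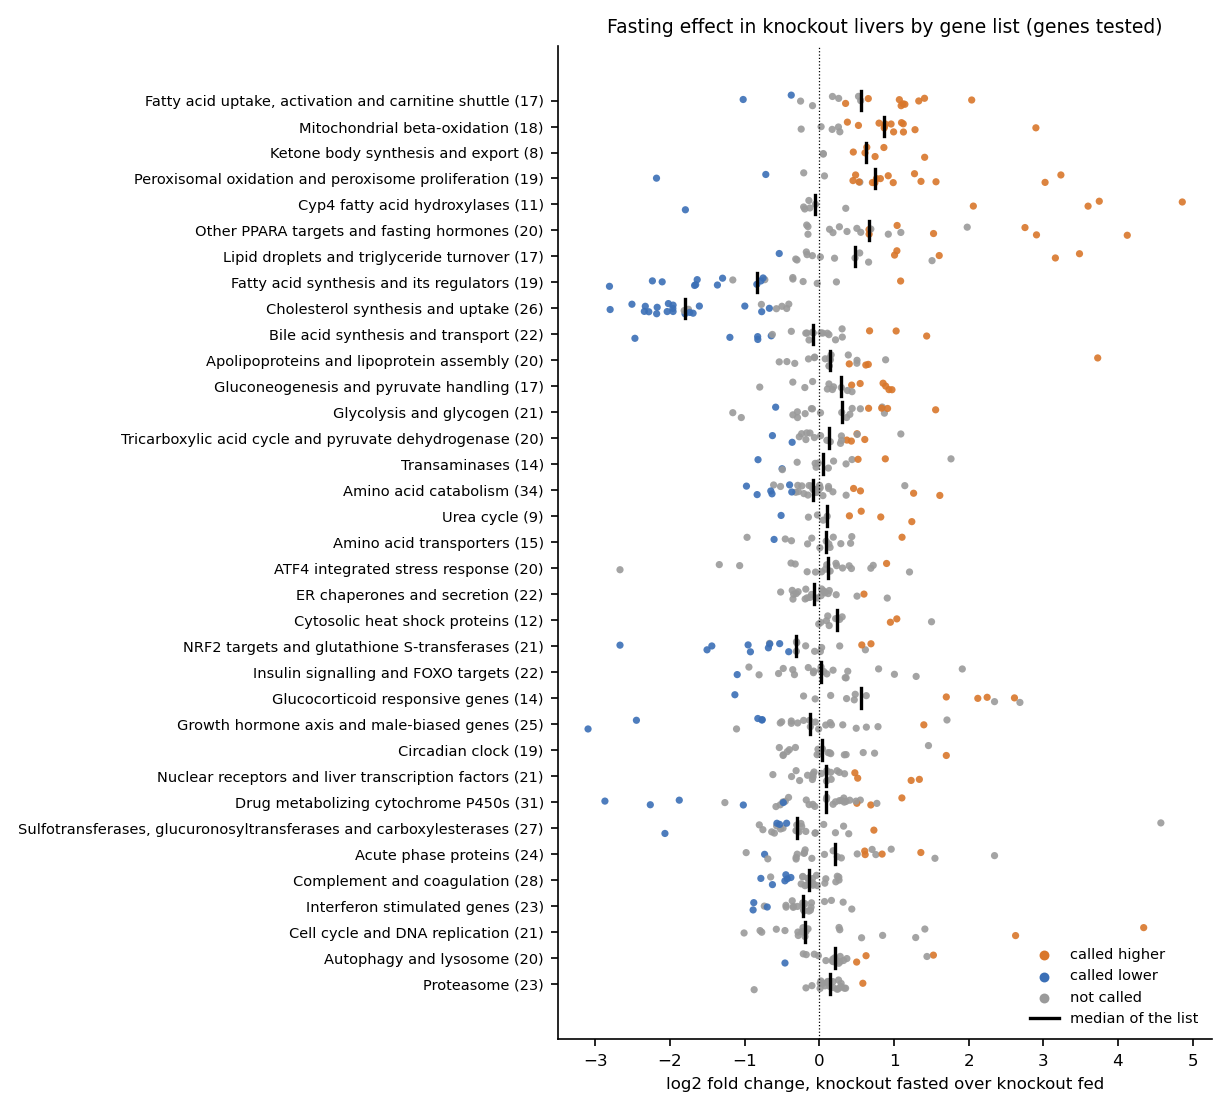
Log2 fold change (horizontal axis) of each tested gene in the gene lists other than markers of cell types and of liver zones, knockout fasted over knockout fed, with called rises in orange, called falls in blue, other genes in grey and a black bar at the list median. The cholesterol list lies wholly below 0 with a median of -1.81, and beta-oxidation has the highest median, 0.87.

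Of 28 complement and coagulation genes 6 fell and none rose, among them Mbl2, from 207, 257 and 313 CPM to 119, 151 and 174 CPM (-0.78 ± 0.13, adjusted p 7.89e-05), and C8a, which fell by 0.63. Of 23 interferon-stimulated genes 3 fell, among them Gbp7 (-0.89, adjusted p 0.004) and Bst2 (-0.88), and none rose. Gbp7 kept its call under all 31 alternatives. Of 24 acute phase genes 4 rose and 1 fell, with a median of 0.21. Lbp, which binds endotoxin, went from 77.4, 101 and 126 CPM to 142, 151 and 168 CPM (0.61 ± 0.11, adjusted p 0.00017). Serpina3n rose by 1.36 (adjusted p 0.0196) and was not called without knockout fed replicate 6 (0.0502), in the fit of knockout libraries alone (0.0597) or by limma (0.0599). Without knockout fed replicate 6 the count of rises was 2, and with the knockout libraries alone it was 1, while the count of falls was 2 without knockout fasted replicate 5 and 0 without knockout fasted replicate 6. Fasted replicate 4 had 1986 CPM of Serpina3n against 405 to 943 CPM in the other fasted libraries, and its list median was 0.64 against -0.21 to 0.18. Mbl2, C8a, Bst2, Lbp and Serpina3n were not called with the kidney-like library in the fit.

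None of 13 Kupffer cell, 8 cholangiocyte and 13 lymphocyte and neutrophil markers tested was called (1 Kupffer marker was without knockout fasted replicate 1), and the summed Kupffer markers lay at 327 to 469 CPM fed and 266 to 486 CPM fasted. Of 14 stellate cell and fibroblast markers 2 fell, with summed levels of 330 to 408 CPM fed and 258 to 366 CPM fasted. Col3a1, a fibrillar collagen, went from 20.2, 20.7 and 28.8 CPM to 3.96, 8.27 and 12.5 CPM (-1.45 ± 0.20, adjusted p 5.39e-06). The other, Col14a1, at -0.64, was not called without knockout fasted replicate 6 (0.052) or with the kidney-like library. Kidney markers summed to 0.208 to 2.21 CPM fed and 0.565 to 5.35 CPM fasted, and 7 of 13 pancreas markers were at 0 in all 12 libraries. Of 16 endothelial markers 1 rose, Lyve1 (0.997 log2, adjusted p 0.0449), near the 2.88% of all genes tested that were called higher. The summed endothelial level was 321 to 444 CPM fed and 297 to 454 CPM fasted. The Lyve1 call was lost with library totals (0.0548), with the kidney-like library and without control fasted replicate 6, control fed replicate 2, 3 or 5, knockout fasted replicate 2, 3, 4 or 5 or knockout fed replicate 1, 2, 4, 5 or 6 (0.0517 to 0.155). Without knockout fed replicate 3 the endothelial count was 2. Of 7 erythroid markers none rose, while 3 did by DESeq2, 2 by limma, 2 with only the knockout libraries and 1 without control fed replicate 1, and 6 had a log2 change above 0, with a median of 0.65 and summed levels of 256 to 459 CPM fed and 359 to 646 CPM fasted. The remaining one, the heme synthesis gene Alas2, was called lower (-0.47, adjusted p 0.0163), but not without knockout fasted replicate 6 (0.0534), without knockout fed replicate 3 (0.0681) or 4 (0.0526) or with the kidney-like library. The median of the cholangiocyte markers was -0.41. The hepatocyte markers summed to 91820 to 174300 CPM fed and 95820 to 201400 CPM fasted. Whether cell make-up took part in any change was not tested.

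The control livers, fasted against fed, show how far the response was shared. In them 1360 genes were called (8.12%), 668 higher and 692 lower. Of the 1029 genes called in knockout livers 691 were also called in control livers, each in the same direction, which is 67.2% of the knockout calls and 50.8% of the control calls. Of the 338 called in knockout livers and not in control livers, 320 had a control change of the same sign. The difference between the fasting effects was called for 1 gene (0.00597%), Zfp871, and DESeq2 called 6. Of the 16757 genes tested, 786 had an unadjusted p under 0.05 in the edgeR test, no more than that threshold passes by chance.

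**Figure D5:**
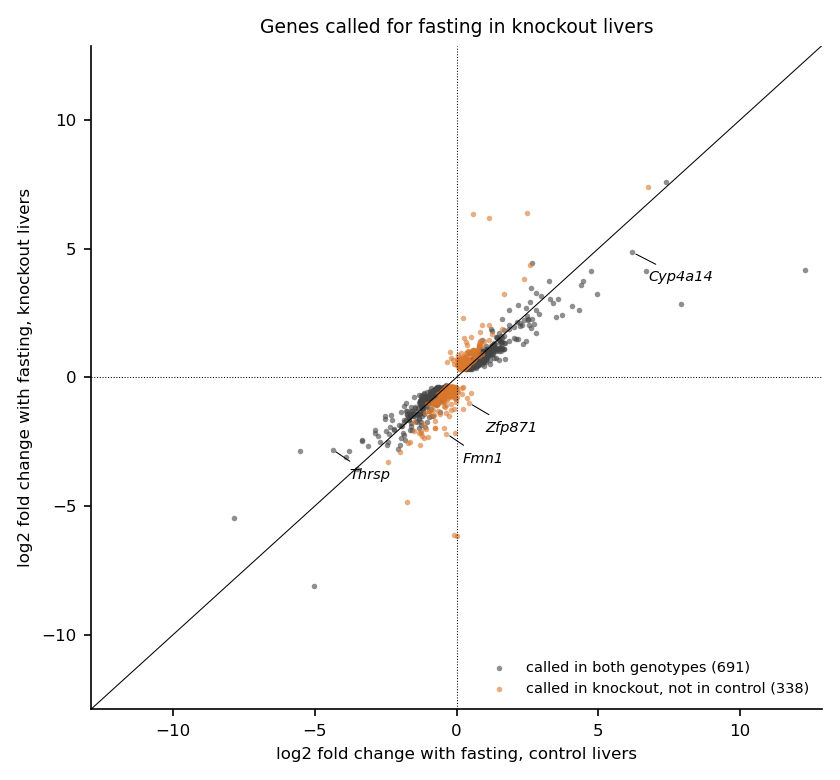
Log2 fold change with fasting in knockout livers (vertical axis) against that in control livers (horizontal axis) for the 1029 genes called in knockout livers, 691 also called in control livers in dark grey and 338 not called there in orange, with the line of equal change. Most points lie near the line, and Zfp871 lies below 0 in knockout and above 0 in control livers.

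Zfp871 (chr17:32771236-32788287), a zinc finger gene, went from 27.6, 31.8 and 43.7 CPM to 11.1, 15.7 and 21.5 CPM in knockout livers (-0.99 ± 0.17, adjusted p 8.77e-05). In control livers it was at 11.9 to 26.3 CPM fed and 20.2 to 29.5 CPM fasted (0.43 ± 0.18, adjusted p 0.161). The difference was -1.42 ± 0.24 with an adjusted p of 0.0284. It was not called with the kidney-like library in the fit or without any one of control fasted replicates 1 and 6, control fed replicates 1, 3, 4 and 5, knockout fasted replicates 1, 3, 4 and 6, and knockout fed replicates 1, 4 and 5, where the adjusted p ran from 0.0515 (without knockout fasted replicate 4) to 0.112 (without control fasted replicate 6). Fmn1, a formin that builds actin filaments, fell in knockout livers from 7.98, 11.2 and 14.6 CPM to 1.2, 2.85 and 3.22 CPM (-2.19 ± 0.29, adjusted p 2.92e-06) and was at -0.36 in control livers, but its difference, with an unadjusted p of 0.000137, did not pass (adjusted p 0.473). Of the next genes by p, Colgalt2 (6.52), 4932438A13Rik (-0.74) and Gm22036 (-6.96) did not pass the edgeR test either. DESeq2 called the difference for Colgalt2 (adjusted p 0.000644) and Gm22036 (0.00732), but both lay at or below 2.00 CPM in every library of the fit.

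No list was tested for a difference between genotypes, so their counts and medians are set side by side. Cholesterol genes had a median of -1.81 in knockout and -0.93 in control livers, with 19 and 7 of 26 called lower, and the median of the differences was -0.785. For the difference 2 of these 26 genes had an unadjusted p under 0.05 in the edgeR test, and none was called. The knockout value joins the 2 sets of fasted libraries described above, with list medians of -1.35 to -1.15 and of -2.78 to -2.26. For Hmgcs1 control livers had 243 to 831 CPM fed and 74.9 to 540 CPM fasted, and the difference of effects was -1.31 ± 0.68 with an unadjusted p of 0.0678. Acute phase genes had a median of 0.21 in knockout and -0.57 in control livers. Over all 16757 genes 786 had an unadjusted p under 0.05 for the difference, and in this list 11 of 24 members did, none of them called. Among them Orm2, an orosomucoid, was at 0.07 in knockout and -1.04 in control livers (unadjusted p 0.00118), chosen after its values were seen. Endoplasmic reticulum chaperones had a median of -0.07 in knockout livers, with 1 of 22 higher, near the 2.88% of all genes tested. None was lower (2 without knockout fasted replicates 2 or 4 or knockout fed replicate 6). In control livers the median was -0.37, with 6 lower. Dnajb9, the 1 gene higher in knockout livers, was at 0.60 with an adjusted p of 0.042 and was not called without control fasted replicate 6, knockout fasted replicates 2, 3 or 4 or knockout fed replicates 1, 2, 3 or 6 (0.0505 to 0.125), with library totals, with the knockout libraries alone or with the kidney-like library. Beta-oxidation genes were called higher in 13 of 18 cases in both genotypes, with medians of 0.87 and 0.98.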

How the data were processed

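Polyadenylated RNA was sequenced in 24 libraries labelled as liver. The read counts per gene were deposited by the authors and, per the submitters' processing notes, were made with featureCounts 1.4.6-p5 (Subread package) after STAR 2.5.1a and bcl2fastq, on GRCm38. Not given in the sources used here were the bcl2fastq version, the annotation release and the strand setting. Overlapping and antisense genes therefore cannot be told apart, and the reads of close paralogs are uncertain. The deposited CPM and RPKM columns entered no test. Of 41388 genes in the files, 40254 (97.3%) were given a symbol.

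The counts of 22 libraries were tested with edgeR 4.0.16 under R 4.3.3. The robust quasi-likelihood test was run in 1 fit of 4 group means, with TMM factors and no covariate, after filterByExpr (minimum count 10, minimum total 15), and p-values were adjusted by Benjamini-Hochberg over 16757 genes. Left out were the damaged control fed replicate 6 and the kidney-like library labelled control fasted replicate 4. The control groups share in the estimate of spread. A standard error is the log2 fold change over the root of its F value. CPM were scaled with the TMM factors, and their log2 values used a prior count of 2. For Gpt2 and Gpt a two-sided exact permutation test ran over 924 arrangements. At 18.4 to 55.3 M reads per library no counting intervals are given, and the replicates carry the error.

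The naming rule took Gpt2, Gpt, and the 15 highest and 15 lowest fold changes of called genes whose groups do not overlap and whose mean log2 CPM was 2 or more, predicted genes and pseudogenes aside. It also took up to 4 called members of each list by p, and the 5 smallest p for the difference between genotypes. A few genes that fall under the rule are left out of the text. Other genes are marked as chosen after their values were seen. The comparison and the lists were chosen with earlier results of these data known, and lists were described by counts and medians without a test.

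As alternatives, the fit was repeated with RLE factors, with library totals, with a filter of 1 count, with a minimum mean CPM of 1, by DESeq2 1.42.0, by limma 3.58.1 (voom with sample weights), with the knockout libraries alone, with 23 libraries, without mitochondrial and the 20 most abundant genes, and with each library left out in turn.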

Additional observations from a re-analysis of the deposited data

Results flagged for a closer look

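Single libraries stood apart from the other 5 of their group in 15 of 298 groups of values tested, by the gap to the nearest other library against the whole range (Dixon's 95% value). Chance flags about 1 in 20 groups, which is 14.9 of 298. In the fasted group, replicate 4 was the highest for the carrier Slc37a4 (268 CPM against 135 to 164 CPM), the glycogen phosphorylase Pygl (411 CPM against 205 to 229 CPM), the lipid droplet enzyme Hsd17b13 (531 CPM against 316 to 379 CPM) and the lymphatic and sinusoidal endothelial gene Lyve1 (19.0 CPM against 8.01 to 11 CPM). Fasted replicate 2 was the lowest for Eif4ebp3 (9.22 CPM against 21.1 to 31.4 CPM) and Haao (174 CPM against 240 to 292 CPM), and fasted replicate 1 the highest for Saa4 (265 CPM against 120 to 159 CPM).

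In the fed group, replicate 1 was low for Pygl (295 CPM against 365 to 412 CPM) and high for Map1lc3a (52.6 CPM against 36.0 to 38.2 CPM). Replicate 2 was high for Chrna2 (5.25 CPM against 2.21 to 3.02 CPM) and Pex11a (59.4 CPM against 29.0 to 35.9 CPM), replicate 3 for Kyat1 (210 CPM against 132 to 155 CPM) and replicate 5 for Slc25a13 (183 CPM against 155 to 164 CPM). Replicate 6 was low for Ulk2 (57.5 CPM against 86.7 to 97.1 CPM) and high for Col3a1 (28.8 CPM against 20.2 to 22.2 CPM).

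The fasting effect on Zfp871 differed between the genotypes by -1.42 on the log2 scale, the only difference that passed the edgeR test. A signal in data outside the fit was 4325 CPM of Kap in the library labelled control fasted replicate 4, against at most 9.186 CPM in the other 22 libraries.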

How the results depend on the processing

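With 23 libraries, the kidney-like one included, the calls for fasting were 379 in knockout and 805 in control livers, and 0 for the difference between genotypes. DESeq2 gave 6 calls for that difference. Leaving out each library in turn gave 845 to 1075 calls for fasting in knockout livers, 1088 to 1434 in control livers and 0 to 1 for the difference. The Gpt2 log2 difference of the exact test then ranged from 0.725 to 1.026. The 8 other fits gave 939 to 1282 calls in knockout livers. Of 148 named genes 78 kept their status, called or not called, under all 31 alternatives, and 127 kept it with every library left out in turn. With 23 libraries 65 lost the call, and 0 called genes reversed direction. Direction was not compared for Gpt, which was not called and ran from -0.114 to 0.089 log2 with each library left out. The fit of the knockout libraries alone gives no difference between genotypes. No paired analysis was possible because the labels give the groups no shared replicate numbers, and libraries were numbered in accession order. Genes near 1 CPM, such as Fgf21 when fed, rest on few reads. Why calls were lost was not tested.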

Other observations

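Some lists were not described above, and their counts stand beside the 6.14% of all genes called for fasting in knockout livers. Of 20 autophagy and lysosome genes 3 rose and 1 fell, with the mitophagy receptors Bnip3 (1.53 ± 0.20 log2, SE, edgeR adjusted p 1.74e-05) and Bnip3l (0.63) among the rises (limma called 6 rises). Bnip3 went from 45.7, 70.6 and 84.7 CPM to 119, 172 and 292 CPM, without overlap. Of 23 proteasome genes 1 rose, Psmd4 (0.58, adjusted p 0.00374), while 2 rose without control fasted replicate 2, knockout fasted replicates 2, 4 or 5 or knockout fed replicate 4, and 3 by DESeq2 and limma. Of the markers of liver zones, 2 of 14 pericentral ones fell, Lect2 (-1.04) and Cyp1a2, and 3 of 15 periportal ones rose, among them Hsd17b13 (0.83). The calls for Psmd4, Lect2 and Hsd17b13 were not made with the kidney-like library in the fit.

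Genes usually tied to other tissues changed in a few cases. Fabp2, the intestinal fatty acid binding protein, went from 16.4, 22.6 and 28.4 CPM to 30.6, 50.3 and 64.9 CPM (1.07 ± 0.16, adjusted p 1.65e-05), a call not made with the kidney-like library. Cela1, an elastase of the pancreas, went from 11.7, 22.5 and 29.8 CPM to 5.58, 6.49 and 8.29 CPM (-1.66 ± 0.21, adjusted p 1.52e-06), while Prss1, Prss2 and 5 other pancreas markers were at 0 in all 12 libraries. The cell cycle inhibitor Cdkn1a was at 0.257 to 6.33 CPM fed and 2.74 to 162 CPM fasted (4.34 ± 0.93, adjusted p 0.0062), was highest in fasted replicate 4, and was not called by limma (0.175) or with the knockout libraries alone (0.0502).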
